A study of Mus musculus with 12 samples.

Results

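Exocrine pancreas genes were examined in arrays of mouse gut epithelium. The set holds 9 genes, Sycn, Ctrb1, Cpa1, Cela1, Cela2a, Cela3b, Ctrl, Pla2g1b and Try5, of 19938 genes with a single symbol on the array. Each is represented by 1 probe set. They were chosen by their log2 values in these same 12 arrays, which are high together in single arrays. Their levels are therefore descriptions, and nothing is supported with them. The label was checked against the genes themselves: 8 of the 9 encode digestive enzymes or their precursors, and Sycn encodes syncollin, a protein of the zymogen granule that is not an enzyme.

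The acinar cell of the pancreas makes most of the digestive enzymes that reach the duodenum. It stores them as inactive precursors, called zymogens, in granules and releases them into the pancreatic ducts after a meal. Trypsins activate the other proteases once they are in the gut lumen. Transcription of the enzyme genes in acinar cells depends on PTF1, a complex built from Ptf1a and Rbpjl, which recognises a CANNTG box followed by a TTTCCC box. Intestinal epithelial cells are not a known main source of these enzymes.

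RNA came from epithelium of intestinal tumors, or of tissue beside them, cut by laser from stained slides and measured on biotin-labelled arrays. The mice were males on a C57BL6/J APCmin/+ background, harvested at 25 weeks. APCmin/+ animals, KO and floxed alike, have 1 mutated copy of Apc and develop adenomas of the intestine. The groups, in the labels' terms, were FSPCre-PPARB KO tumor epithelium (3 arrays), PPARB floxed tumor epithelium (3), FSPCre-PPARB KO tumor adjacent epithelium (2) and PPARB floxed tumor adjacent epithelium (2), called KO tumor, floxed tumor, KO adjacent and floxed adjacent. KO animals are FSPCre-PPARB -/-. In them Cre, which removes the floxed gene Ppard, is driven by the promoter of fibroblast-specific protein, used mainly by fibroblasts. Whether Cre was active in the dissected epithelium was not tested. Floxed animals are PPARB flox/flox littermates. For 2 more adjacent arrays the title and the genotype characteristic contradict each other. They are called conflict array 1 (KO by title, flox/flox by characteristic) and conflict array 2 (floxed by title, FSPCre-PPARB -/- by characteristic), and they enter no comparison of genotypes. Nothing states that arrays came from separate animals, so p-values measure the spread between these arrays, which may be technical.

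Arrays differed in signal. In 4 floxed arrays, numbers 1 and 2 of the tumor group and both adjacent ones, the median correlation with the other arrays was 0.507 to 0.611, against 0.818 to 0.852 for the other 8. They are called weak-signal arrays. The markers of intestinal epithelium (Epcam, Cdh1, Vil1, Krt8 and 4 more) were lower in 3 of them, by 1.11 to 1.26 log2 on average below their own 12-array medians, and by 0.17 in floxed tumor array 1. The pair of floxed tumor array 3 and conflict array 1 was more alike than either of them was to the rest. Over 35556 probe sets they correlated at 0.900, while floxed tumor array 3 reached 0.812 to 0.839 and conflict array 1 reached 0.822 to 0.852 with the 6 remaining arrays of normal signal. Precision is limited by the small number of arrays per group.

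Promoter sequence was set beside the arrays because the genes move together and PTF1 is a known regulator of acinar enzyme genes. RefSeq promoters on build GRCm38.p6, each 300 bases long (250 before to 50 after the annotated start), were matched for 8 of the 9 genes, and Try5 had no entry in the table used. Both strands were searched for CANNTGNNNNTTTCCC, a CANNTG box and a TTTCCC box set 4 bases apart. The motif was found in Ctrb1 and Cela1, 2 of 8 genes, against 31 of 32851 promoters in all (0.0944%), and in 1 of 16 promoters of other acinar enzymes. With spacers of 3, 5, 6 or 7 bases it was found in 0 of 8, against 0.128%, 0.107%, 0.143% and 0.143% of all promoters. At shares this low, 0 of 8 says nothing about a preferred spacer. Longer spacers were not searched. The single boxes are common. CACCTG was in 4 of 8 promoters against 20.2% of all, TTTCCC in 4 of 8 against 25.2%, and CANNTG in 6 of 8 against 72.3%. CACCTG is one form of CANNTG, and both boxes lie inside the joint motif, so these counts overlap. A match is a description of letters and not a measured site. The promoters of the 2 genes with the joint motif are shown 5′ to 3′ on the minus strand, from chr8:111690961-111691260 for Ctrb1 and chr15:100687871-100688170 for Cela1, with the motif in capitals.
Ctrb1: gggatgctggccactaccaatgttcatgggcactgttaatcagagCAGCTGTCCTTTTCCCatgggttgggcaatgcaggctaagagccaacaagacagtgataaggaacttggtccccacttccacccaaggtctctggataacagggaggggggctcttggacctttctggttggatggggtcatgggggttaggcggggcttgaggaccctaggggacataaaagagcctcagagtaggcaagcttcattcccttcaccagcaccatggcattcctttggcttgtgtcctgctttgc
Cela1: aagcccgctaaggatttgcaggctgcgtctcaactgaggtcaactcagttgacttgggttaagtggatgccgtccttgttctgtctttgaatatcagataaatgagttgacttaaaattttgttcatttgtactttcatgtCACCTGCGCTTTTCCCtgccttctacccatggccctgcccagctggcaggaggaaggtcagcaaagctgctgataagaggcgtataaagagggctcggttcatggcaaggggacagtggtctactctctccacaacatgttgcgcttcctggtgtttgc
In Ctrb1 the motif reads CAGCTGTCCTTTTCCC and begins at offset -205 from the annotated start, and in Cela1 it reads CACCTGCGCTTTTCCC and begins at offset -109. Ctrb1 and Cela1 are shown because they hold the motif yet differed in the arrays: Ctrb1 was among the genes that stood highest above their median, and Cela1 had the smallest excess in floxed tumor array 3 and in conflict array 1.

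The signal was concentrated in few arrays. It was strongest in floxed tumor array 3 and conflict array 1, weaker in KO tumor array 2, and present for some genes in floxed adjacent array 2. Of the 2 strongest arrays 1 is tumor and 1 is adjacent epithelium. For each gene and array the excess was taken as the log2 value minus that gene's own median over the 12 arrays, and the mean excess over the 9 genes was 3.22 in floxed tumor array 3, 3.02 in conflict array 1, 1.79 in KO tumor array 2 and 0.99 in floxed adjacent array 2. Conflict array 2 stood at 0.23. In the other 7 arrays the mean excess lay between -0.47 and -0.26. These are bulk samples, in which fewer cells of a type and less RNA per cell cannot be told apart.

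**Figure D1:**
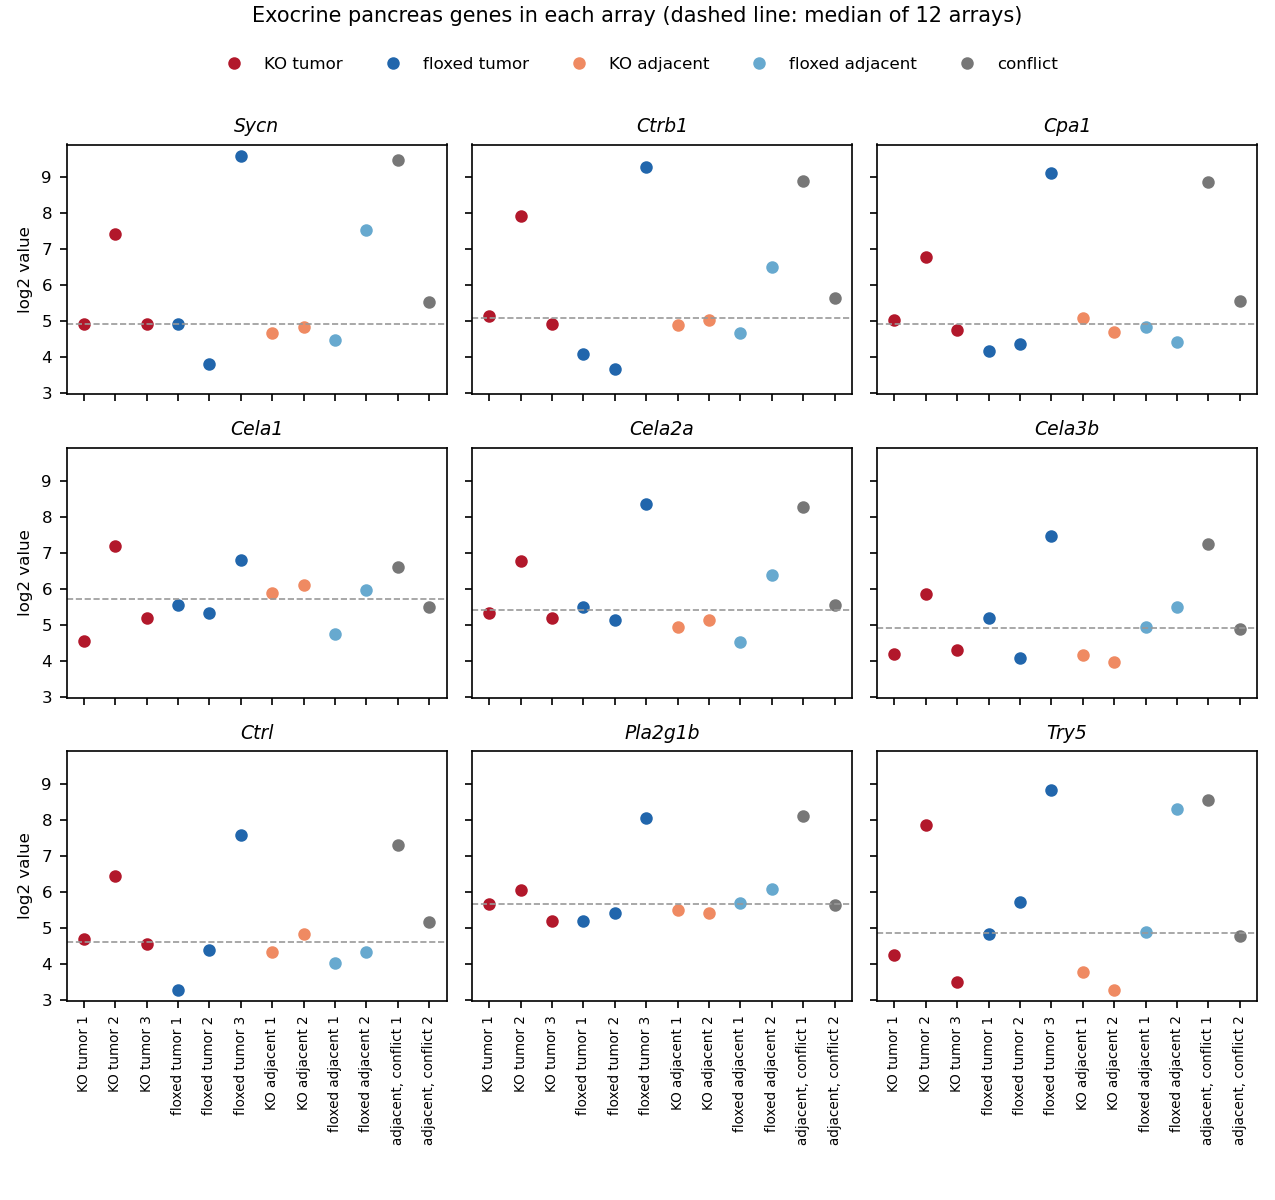
Log2 value of each of the 9 exocrine pancreas genes (one panel per gene, y axis) in each of the 12 arrays (x axis, 1 point per array, coloured by group), with a dashed line at the gene's median over the arrays. Floxed tumor array 3 and conflict array 1 hold the 2 highest points in 8 of the 9 panels, and in the panel of Cela1 the highest point is KO tumor array 2.

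Among the chymotrypsins, Ctrb1 (probe set 10581882) encodes chymotrypsinogen B, which cuts after aromatic residues. Its log2 values were 5.14, 7.91 and 4.93 in KO tumor arrays 1 to 3, 4.09, 3.68 and 9.29 in floxed tumor arrays 1 to 3, 4.90 and 5.03 in KO adjacent arrays 1 and 2, 4.68 and 6.52 in floxed adjacent arrays 1 and 2, and 8.90 and 5.63 in conflict arrays 1 and 2. Floxed tumor array 3 was 18.4-fold above the gene's log2 median of 5.08, conflict array 1 was 14.1-fold above it, and KO tumor array 2 was 7.11-fold above it. Ctrl (probe set 10581355), chymotrypsin-like protease, was at 4.69, 6.44 and 4.55 in the KO tumor arrays, 3.29, 4.38 and 7.59 in the floxed tumor arrays, 4.34 and 4.84 in the KO adjacent arrays, 4.03 and 4.33 in the floxed adjacent arrays, and 7.31 and 5.16 in the conflict arrays. The same 3 arrays led as for Ctrb1, but floxed adjacent array 2 did not stand out for Ctrl, at 0.29 below its median.

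Try5 (probe set 10544333) encodes a trypsin, the class of protease that activates other zymogens. It measured 4.25, 7.86 and 3.51 in the KO tumor arrays, 4.84, 5.72 and 8.82 in the floxed tumor arrays, 3.78 and 3.29 in the KO adjacent arrays, 4.89 and 8.30 in the floxed adjacent arrays, and 8.54 and 4.77 in the conflict arrays. Of the 9 genes, Try5 was the one with the smallest span over its 4 highest arrays, which all lay at 7.86 or above, while the next array was at 5.72. Mouse trypsin genes are near-identical copies, and probe sets of Try5, Try4, Try10, Prss2 and Prss3 may share signal, so values of single trypsins are uncertain.

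Cela2a and Cela3b encode elastases. Cela2a (probe set 10518050) had values of 5.32, 6.76 and 5.17 in the KO tumor arrays, 5.48, 5.13 and 8.34 in the floxed tumor arrays, 4.93 and 5.13 in the KO adjacent arrays, 4.53 and 6.38 in the floxed adjacent arrays, and 8.27 and 5.55 in the conflict arrays. Cela3b (probe set 10517573) followed the same order with 4.18, 5.84 and 4.31 in the KO tumor arrays, 5.19, 4.09 and 7.47 in the floxed tumor arrays, 4.16 and 3.97 in the KO adjacent arrays, 4.94 and 5.50 in the floxed adjacent arrays, and 7.23 and 4.87 in the conflict arrays. Both were highest in floxed tumor array 3, then conflict array 1, then KO tumor array 2, and Cela3b shares close sequence with Cela3a, so its probe set may read both.

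Cela1 (probe set 10432652), elastase 1, was the exception. Its values were 4.55, 7.19 and 5.19 in the KO tumor arrays, 5.54, 5.32 and 6.80 in the floxed tumor arrays, 5.89 and 6.10 in the KO adjacent arrays, 4.74 and 5.95 in the floxed adjacent arrays, and 6.59 and 5.48 in the conflict arrays. KO tumor array 2 was highest, and next came floxed tumor array 3, 0.39 log2 lower and 2.11-fold above the median. The other 9 arrays ran from 4.55 to 6.10, and the third-highest array, conflict array 1, was 0.49 log2 above them.

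Cpa1 (probe set 10537051) encodes carboxypeptidase A1, which removes residues from the C-terminal end of peptides. It was measured at 5.03, 6.77 and 4.76 in the KO tumor arrays, 4.17, 4.37 and 9.11 in the floxed tumor arrays, 5.08 and 4.69 in the KO adjacent arrays, 4.83 and 4.43 in the floxed adjacent arrays, and 8.86 and 5.56 in the conflict arrays. Both floxed tumor array 3 and conflict array 1 stood more than 2 log2 above KO tumor array 2, and floxed adjacent array 2 lay 0.50 below the median. Cpa1 and Ctrl were the 2 genes with no excess in floxed adjacent array 2.

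Pla2g1b (probe set 10524698) encodes the pancreatic phospholipase A2 of lipid digestion. The arrays gave 5.67, 6.05 and 5.20 in KO tumor, 5.21, 5.42 and 8.05 in floxed tumor, 5.51 and 5.40 in KO adjacent, 5.69 and 6.08 in floxed adjacent, and 8.10 and 5.65 in the conflict arrays. The 2 arrays apart from the rest were floxed tumor array 3 and conflict array 1, and the other 10 lay between 5.20 and 6.08. Conflict array 1 was the higher of the 2 by 0.05, the single gene of the 9 for which it was.

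Sycn (probe set 10551531), syncollin of the zymogen granule membrane, had the largest excess of the set. Its values were 4.92, 7.41 and 4.94 in the KO tumor arrays, 4.92, 3.82 and 9.59 in the floxed tumor arrays, 4.69 and 4.84 in the KO adjacent arrays, 4.47 and 7.54 in the floxed adjacent arrays, and 9.48 and 5.54 in the conflict arrays. Floxed tumor array 3 was 25.3-fold and conflict array 1 was 23.5-fold above the log2 median of 4.93. KO tumor array 2 and floxed adjacent array 2 were close to each other, at 5.59-fold and 6.13-fold above it.

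Gene by gene, floxed tumor array 3 and conflict array 1 lay close together. Their difference ran from -0.05 to 0.39 log2 over the 9 genes, with a median of 0.24, and floxed tumor array 3 was the higher for 8 of 9. Excess above 2 log2, a 4-fold difference, was reached by 8 of 9 genes in floxed tumor array 3, where 0.808% of all 19938 genes reached it, and by 8 of 9 in conflict array 1, where 0.732% did. In both arrays at once it was reached by 8 of 9 genes, against 0.271% of all genes. These 2 arrays were the 2 highest for 8 of 9 genes, against 6.03% of all genes. These counts describe how the genes were chosen and are no evidence of a difference.

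KO tumor array 2 and floxed adjacent array 2 shared the signal in part. KO tumor array 2 exceeded the median by 2 log2 for 3 of 9 genes (Sycn, Ctrb1 and Try5), against 0.115% of all genes, and stood above it for all 9. Floxed adjacent array 2 did so for 2 of 9 (Sycn and Try5), against 0.983% of all genes, and stood above its median for 7 of 9. Floxed adjacent array 2 is a weak-signal array, and its part in these values was not tested. The third-highest array was KO tumor array 2 for Ctrb1, Cpa1, Cela2a, Cela3b and Ctrl and floxed adjacent array 2 for Sycn, Pla2g1b and Try5. In the other 8 arrays 0 of 9 genes passed 2 log2. The share of all genes past it there was 0.0552% and 0.331% in KO tumor arrays 1 and 3, 0.863% and 1.47% in floxed tumor arrays 1 and 2, 0.1% and 0.115% in KO adjacent arrays 1 and 2, 0.737% in floxed adjacent array 1 and 0.0652% in conflict array 2.

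Across the 12 arrays the 36 pairs of genes correlated at 0.605 to 0.973 with a median of 0.878. The points share few arrays of high signal. Without floxed tumor array 3 and conflict array 1 the median was 0.657, with pairs from 0.266 to 0.919 over 10 arrays, and without the weak-signal arrays it was 0.974 over 8 arrays. Cela2a correlated best with the mean of the other 8 genes (0.976) and Cela1 least (0.750).

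Acinar genes outside the 9 were read in the same arrays, and 30 of 38 listed genes were measured. They had their highest mean excess in the same 2 arrays, at 2.08 in floxed tumor array 3 and 1.78 in conflict array 1, against 0.58 in KO tumor array 2 and 0.61 in floxed adjacent array 2. Excess above 2 log2 was found for 13 of 30 genes in floxed tumor array 3, for 12 in conflict array 1, for 2 in KO tumor array 2, for 4 in floxed adjacent array 2 and for 1 in floxed tumor array 2. In both floxed tumor array 3 and conflict array 1 it was found for 12 of 30. These arrays were the 2 highest for 22 of 30 genes, 10 of 13 enzymes, 9 of 12 secretory genes and 3 of 5 transcription factors, against 6.03% of all genes. Conflict array 1 was above all 4 adjacent arrays of settled genotype for 9 of 9 exocrine and 22 of 30 other acinar genes, against 19.7% of all genes. Among the 30, Prss2, Prss3, Try4 and Try10 may share probe signal with Try5, and Cela3a with Cela3b. The counts over the 30 are therefore not fully separate from the chosen 9.

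**Figure D2:**
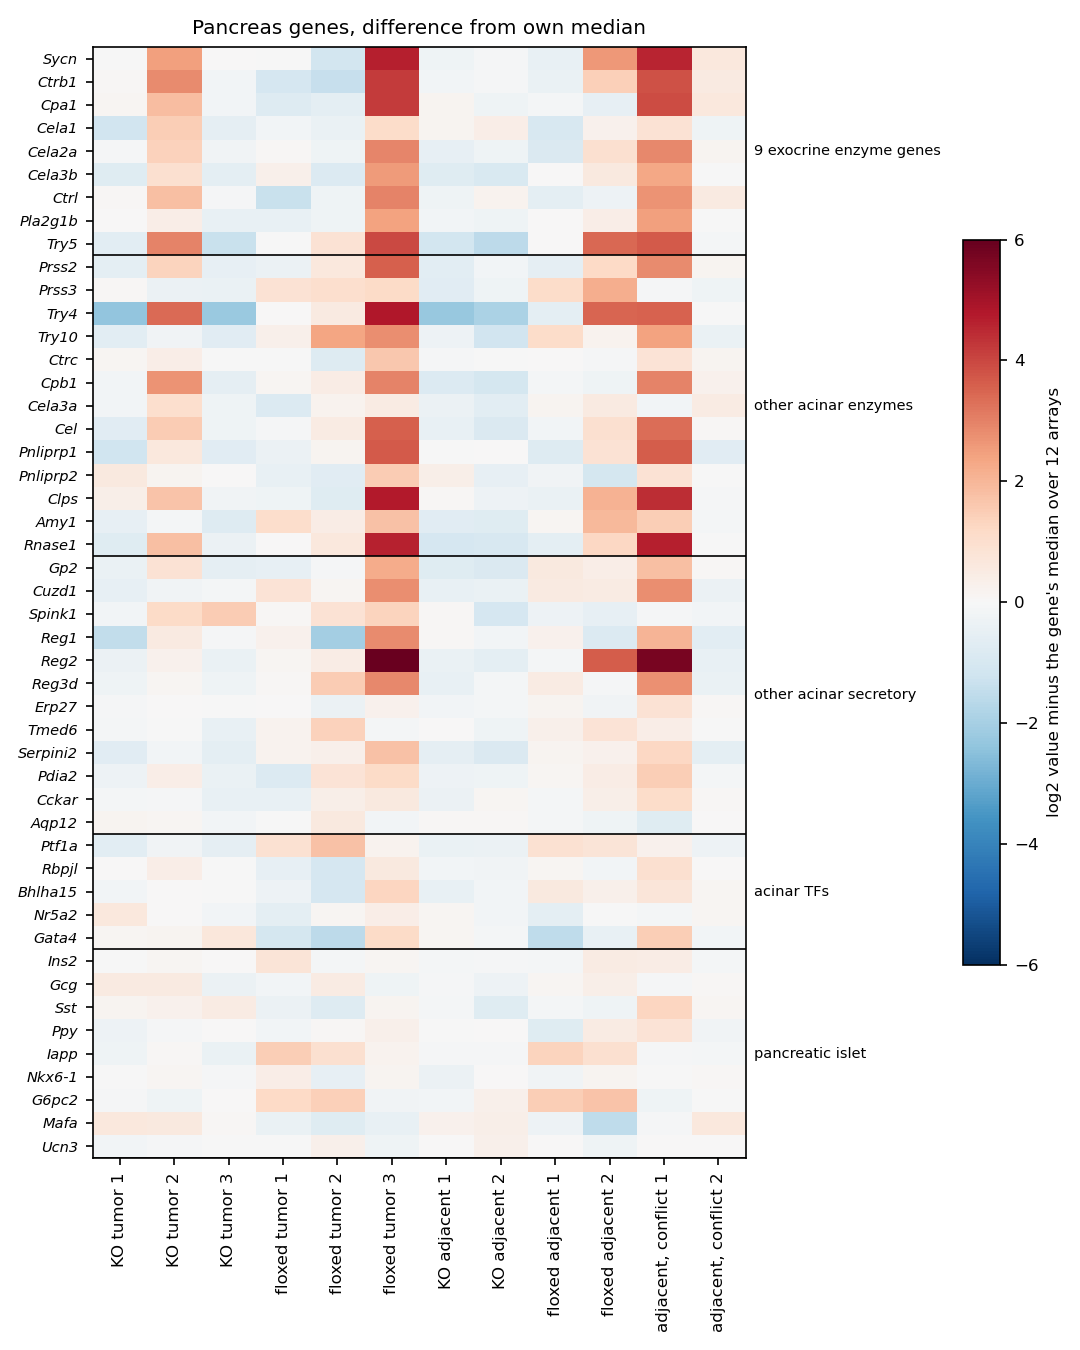
Log2 value minus the gene's own median over 12 arrays (colour, blue below and red above) for the 9 exocrine genes, 30 other acinar genes and 9 islet genes (rows) in each array (columns). Columns of floxed tumor array 3 and conflict array 1 are red for most enzymes and secretory genes and pale for most islet genes.

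Lipid-digesting genes were among the clearest. Clps, colipase, the cofactor of pancreatic lipase, measured 6.53, 7.87 and 5.97 in KO tumor, 5.93, 5.44 and 10.94 in floxed tumor, 6.22 and 5.89 in KO adjacent, 5.79 and 8.28 in floxed adjacent, and 10.59 and 6.12 in the conflict arrays. Cel, the bile salt-activated lipase, was at 3.59, 5.81 and 4.02 in KO tumor, 4.20, 4.76 and 7.85 in floxed tumor, 3.82 and 3.44 in KO adjacent, 4.15 and 5.23 in floxed adjacent, and 7.63 and 4.38 in the conflict arrays. Both put floxed tumor array 3 first and conflict array 1 next, with a gap of more than 1 log2 to the third array. Pnliprp1, a pancreatic lipase-related protein, reached 7.96 in both floxed tumor array 3 and conflict array 1, with 3.10 to 5.18 elsewhere.

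Proteases and the secreted ribonuclease divided in the same way. Rnase1, pancreatic ribonuclease, was at 9.19 in floxed tumor array 3 and 9.25 in conflict array 1, with 6.36 in KO tumor array 2 and 3.54 to 5.81 in the other 9. Cpb1, carboxypeptidase B1, was at 7.11 and 7.13 in those 2 arrays and at 6.84 in KO tumor array 2, but at 3.88 in floxed adjacent array 2. Prss2, a trypsin, was at 7.78 and 7.03 in the first 2 arrays, 5.55 in KO tumor array 2 and 5.41 in floxed adjacent array 2. Prss3, Cela3a and Amy1, of which Amy1 is also made by salivary gland and liver, did not have floxed tumor array 3 and conflict array 1 as their 2 highest.

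Secretory and granule genes were not all shared by KO tumor array 2 and floxed adjacent array 2. Reg2, a regenerating islet-derived secreted protein made by acinar cells, was at 9.23 in floxed tumor array 3, 8.99 in conflict array 1 and 6.95 in floxed adjacent array 2, but at 3.57 in KO tumor array 2 and 2.73 to 3.75 in the other 8. Cuzd1, a zymogen granule protein, was at 6.74 and 6.75 in the first 2 arrays, and KO tumor array 2 at 3.75 lay among the remaining 9, which ran from 3.44 to 4.79. Gp2, the major glycoprotein of the zymogen granule membrane, was at 6.22 and 5.80 in the first 2 arrays, then 4.87 in KO tumor array 2. The 3 genes of this list without those 2 arrays on top, Spink1, Tmed6 and Aqp12, had r of 0.30, -0.03 and -0.59 with the mean profile of the 9 genes.

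The acinar transcription factors stood less apart. Their mean excess was 0.74 in floxed tumor array 3 and 0.65 in conflict array 1, and 0 of 5 passed 2 log2 in any array. Rbpjl, the acinar partner in PTF1, was 0.61 above its median in floxed tumor array 3, 0.94 in conflict array 1 and 0.42 in KO tumor array 2. Bhlha15, a regulator of secretory cell structure, was 1.29 and 0.71 above in the first 2 arrays. Gata4 was 1.15 above its median in floxed tumor array 3 and 1.47 above in conflict array 1, the largest excess of the list there. Nr5a2 stood at 0.40 and -0.11 from its median in those 2 arrays. Ptf1a itself, the other named PTF1 subunit, was 0.23 and 0.24 above its median there and higher in all 4 weak-signal arrays, at 4.52 to 5.48. Its r with the mean profile of the 9 genes was -0.04.

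Most islet hormones and factors stood near their medians in floxed tumor array 3 and conflict array 1. The mean excess of 9 islet genes was -0.02 and 0.23 there, and 0 of 9 passed 2 log2 in any array. Ins2, insulin, was at 4.27 and 4.56 in these arrays within a range of 4.00 to 4.91, and Gcg, glucagon, was at 3.79 and 3.96 within a range of 3.70 to 4.56. Sst, somatostatin, which gut endocrine cells also make, was at 7.36 in conflict array 1, above a range of 5.28 to 6.54 in the others. Ppy was also highest in conflict array 1, at 5.74 (0.80 above its median), and was at 5.23 in floxed tumor array 3. With the mean profile of the 9 exocrine genes, Ppy had an r of 0.67 and Sst of 0.61. For the remaining islet genes r ran from -0.47 to 0.36.

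Markers of other tissues were read for each array in which the signal stood. The gastric and Brunner gland list of 12 genes had a mean excess of 3.60 in conflict array 1, with 9 of 12 genes past 2 log2, of 1.11 in floxed tumor array 3 (3 of 12) and of -0.09 in KO tumor array 2 (0 of 12). The gastric list also averaged 1.07 in KO tumor array 3 and 1.06 in KO adjacent array 1 (2 of 12 each). In those 2 arrays the 9 exocrine genes averaged -0.40 and -0.31. Gkn2 reached 11.8 and Gkn1 reached 11.2 in conflict array 1, against 7.49 and 7.73 in floxed tumor array 3. In KO tumor array 3 Gkn2 was at 9.14. Atp4a, Atp4b and Chia1 lay below their medians in both conflict array 1 and floxed tumor array 3. The 4 duodenal genes averaged 2.58 above their medians in floxed tumor array 3 and 3.03 in KO tumor array 3, where the 9 exocrine genes averaged -0.40, and 0.42 in conflict array 1 and -0.47 in KO tumor array 2. In floxed adjacent array 2 the gastric and duodenal lists averaged 0.08 and -1.28. The part of gastric and duodenal tissue in the enzyme signal was not tested. The 6 pancreatic duct genes, which gut epithelium shares, averaged 1.05 in floxed tumor array 3 (1 of 6 past 2 log2), 1.62 in conflict array 1 (3 of 6) and 0.00 in KO tumor array 2, but also 1.04 in KO tumor array 3 (2 of 6). In floxed adjacent array 2 they averaged -0.80. Liver, salivary gland and adipose tissue had 0 genes past 2 log2 in any array. Below that threshold the 8 salivary genes stood above their medians in floxed adjacent array 2, all 8 of them, with a mean excess of 0.96, against 0.99 for the 9 exocrine genes in the same array. In the other weak-signal arrays the salivary list averaged 0.51, 0.51 and 0.59, and the liver list averaged 0.29 to 0.62 over the 4. The salivary list averaged 0.08 in floxed tumor array 3, -0.06 in conflict array 1 and -0.17 in KO tumor array 2. The intestinal epithelium markers were 1.36 above their medians in floxed tumor array 3 and 0.87 in conflict array 1, 0.31 in KO tumor array 2 and 1.24 below in floxed adjacent array 2.

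**Figure D3:**
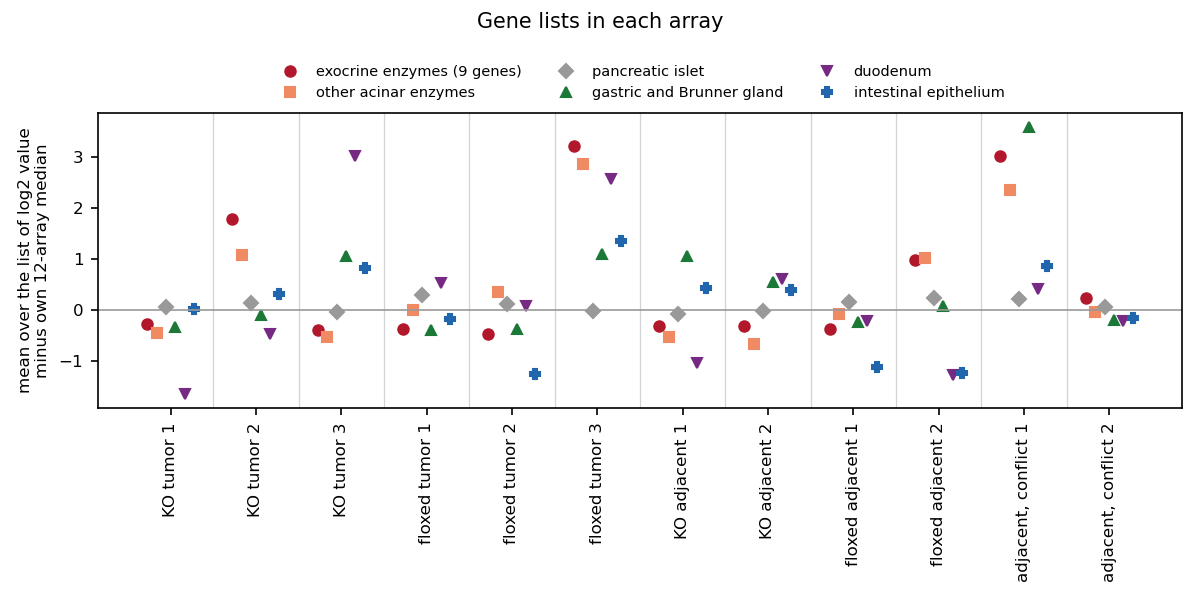
Mean over each gene list of the log2 value minus the gene's 12-array median (y axis) for 6 lists, in each array (x axis, 1 marker per list). Exocrine and other acinar enzymes stand together in floxed tumor array 3, conflict array 1, KO tumor array 2 and floxed adjacent array 2, while the islet markers stay between -0.08 and 0.30 and the gastric and duodenal markers follow another order.

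Genes most like the 9 were ranked by Pearson correlation with the mean of the 9, each centred on its median, over 12 arrays and 4771 genes with a range of at least 2 log2. The first 15 were Clps (0.974), Cel (0.963), Rnase1 (0.958), Prss2 (0.956), Pnliprp1 (0.926), Gp2 (0.920), Cpb1 (0.904), Reg3a (0.885), Reg2 (0.884), Try4 (0.876), Slc25a5 (0.873), Cops9 (0.870), Tnfrsf18 (0.868), Gstm1 (0.864) and Sem1 (0.858). Of these, 9 belong to the acinar lists and 6 to none. Prss2 and Try4, among the 9, may share probe signal with Try5. With Spearman's correlation 2 of the 15 remained and without the weak-signal arrays 9 remained. Slc25a5, a mitochondrial carrier of ADP and ATP, was at 7.99 in floxed tumor array 3 and 7.06 in conflict array 1, with 4.92 to 5.85 in the other 10.

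KO was then compared with floxed tumor epithelium, the comparison named in the series design. The mean difference of the 9 genes was -0.41 log2, 0 of 9 passed the test (limma, adjusted p under 0.05), and 1.08% of all genes did (0.682% higher and 0.396% lower in KO). Single genes ran from -1.25 (Try5) to 0.31 (Ctrb1). The 9 genes' median difference of -0.36 stood beside -0.01 for all genes. Of 30 other acinar genes 0 passed, with a median of -0.67 and 24 below 0. Beside them the salivary list had 7 of 8 genes below 0, a median of -0.48 and 1 called lower, and the goblet and intestinal epithelium lists had medians of 1.35 and 0.47 with 0 called (2 goblet genes higher with the replicate block). The part of these lists in the acinar values was not tested. The replicate number as a block gave 3.92% of all genes called (2.15% higher and 1.77% lower), left 0 of 9 called, and called 2 other acinar genes lower in KO, Try10 (-2.33 log2, adjusted p = 0.0445, limma) and Ptf1a (-1.43, adjusted p = 0.0359, limma). Over the alternatives that left more than 1 array in each tumor group, the adjusted p of Try10 (limma) ran from 0.023 to 0.233. That of Ptf1a ran from 0.0017, without floxed tumor array 3, to 0.242 over the alternatives. Without that array the floxed tumor arrays left, 1 and 2, were weak-signal arrays. Ptf1a was at 4.65 and 5.48 in them and at 3.96 in floxed tumor array 3. In the KO tumor arrays it was at 3.11, 3.50 and 3.19. The part of weak signal in these values was not tested. The 9 genes' mean difference rested on single arrays. It was 0.80 without floxed tumor array 3, -1.12 without KO tumor array 2 and -2.84 without the weak-signal arrays, which left floxed tumor array 3 as the lone floxed tumor array, assumed to vary like the other groups. In that fit 7 of 9 and 21 of 30 other acinar genes passed, beside 3866 of all 19938 genes. The 9 genes were chosen for their high values in that array among others, so these calls were fixed by the choice and support nothing.

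In adjacent epithelium the 9 genes averaged -0.63 log2 in KO relative to floxed, with 0 of 9 called and 6.06% of all genes called (2.91% higher and 3.15% lower in KO). With the replicate block 12.3% were called (6.29% higher and 5.99% lower) and again 0 of 9. A fit of the adjacent arrays alone called 3435 of 19938 genes and 1 of 9, Cela3b (-1.15 log2, adjusted p = 0.0455, limma). It also called 4 of 30 other acinar genes, Prss3, Gp2, Cuzd1 and Ptf1a, all lower in KO. The islet genes G6pc2 (-1.51 log2, adjusted p = 0.0239, limma) and Iapp (-1.21, adjusted p = 0.0325, limma) were called lower too. The replicate block also called these islet genes. Over the 4 weak-signal arrays G6pc2 and Iapp stood 0.94 to 1.69 above their medians. The part of weak signal in these calls was not tested. The 9 genes were chosen by their values in these arrays, so the call of Cela3b supports nothing. The adjusted p of Cela3b ran from 0.0455 to 0.994 over the alternatives. The 9 genes' median of -0.43 stood beside -0.04 for all genes. Single genes ran from -3.06 (Try5) to 0.64 (Cela1). The 30 other acinar genes had a median of -0.74 with 25 below 0, and 1 was called. Beside them the salivary list had 8 of 8 genes below 0, a median of -0.93 and 3 called lower, and the intestinal epithelium list had 8 of 8 above 0, a median of 1.35 and 0 called. The goblet list had 5 of 6 above 0, a median of 2.82 and 2 called higher. With the replicate block 4 epithelium and 4 goblet genes were called higher. The part of these lists was not tested. Prss3, a trypsin, averaged 2.47 ± 0.30 in KO adjacent and 4.59 ± 0.76 in floxed adjacent arrays (SD, n = 2 each), a difference of -2.13 ± 0.37 (SE, limma adjusted p = 0.0193). Both floxed adjacent arrays are weak-signal arrays, and Prss3 was also at 3.79 and 3.96 in the weak-signal tumor arrays and at 4.10 in floxed tumor array 3, whose signal is not weak. It was at 2.26 to 3.02 in the 5 KO arrays. In conflict arrays 1 and 2, whose signal is not weak, Prss3 was at 2.84 and 2.70. By title or by characteristic 1 of these 2 arrays is floxed, so a floxed adjacent array lay within the KO range. Its adjusted p ran from 0.0135 to 0.34 over the alternatives. The mean difference of the 9 genes was 0.05 without floxed adjacent array 2, where some of them stood high, and -1.30 without floxed adjacent array 1. With the conflict arrays read by title it was 0.51, and read by characteristic -1.35.

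Tumor and adjacent epithelium were compared over all 12 arrays, 6 of each. The mean difference of the 9 genes was 0.04 log2, 0 of 9 were called, and 0% of all genes passed (limma), with 513 of 19938 at an unadjusted p under 0.05. The fit held no term for genotype or for weak signal, so differences of either kind entered the spread. A share of 0% therefore does not show that the tissues are alike. The mean of Sycn was 5.93 ± 2.15 in tumor and 6.09 ± 2.00 in adjacent arrays (SD, n = 6 each), so that the spread within each tissue was over 10 times the difference of -0.16. Of 30 other acinar genes 0 were called. The 2 arrays of strongest enzyme signal lay 1 in each tissue, and the mean difference ran from -0.48 without floxed tumor array 3 to 0.54 without conflict array 1.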

How the data were processed

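The labels describe laser-dissected epithelium hybridized to 12 biotin-labelled expression arrays. The deposited table holds 1 column of log2 expression values per array, and the submitters' processing notes name Partek and RMA (robust multi-array averaging) without a version. Within-array SDs ran from 1.04 to 1.57, so the columns do not share one distribution. The sources used here state no further filter. The platform annotation gave 1 symbol to 21789 of 35556 probe sets, several to 1621 and none here to 12146, and those with 1 symbol were used. The highest-mean probe set stood for a gene, leaving 19938 genes. Entrez identifiers of 19856 matched the reference table.

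The genes and lists were chosen with earlier results of these data known. Named were the 9 genes, the measured genes of the acinar and islet lists, the 15 genes most correlated with the 9 (predicted genes, microRNAs, snoRNAs and smell receptors counted but not named, 3 here), and up to 4 genes of each other list. Islet, stomach, duodenum, ileum, duct, Paneth, goblet, epithelium, adipose, liver, salivary, plasma cell and smooth muscle lists were read as excess per array. The Paneth, ileum, plasma cell and smooth muscle lists reached at most 0.670 in mean excess, and the goblet list 0.950.

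Genotypes were compared with limma 3.58.1 in R 4.3.3 (lmFit and eBayes, two-sided, Benjamini-Hochberg adjustment over all genes) in 1 fit of 10 arrays in 4 groups, and tissues over 12 arrays. On simulated data with 19938 genes, 18%, 74%, 96% and 94% of genes changed by 1, 2, 3 and 4 log2 were recovered for tumor epithelium, and 2%, 62%, 72% and 94% for adjacent epithelium. For tissue these were 60%, 96%, 98% and 100%. These rates describe the simulated data. Whether they hold for the real arrays, which differ in signal, was not tested. Same-numbered tumor arrays of both genotypes deviated together at 0.105, 0.121 and 0.347 across genes, all above the limit of 0.1 set for treating the numbers as a pairing, although KO tumor array 1 correlated better with floxed tumor array 2 (0.246). Same-numbered adjacent arrays did not (0.0099). Alternatives were other scaling, the dimmest genes left out, all probe sets averaged, other variance options, fewer arrays, the replicate block, both readings of the conflicting labels and each array left out.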

Additional observations from a re-analysis of the deposited data

Results flagged for a closer look

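Conflict array 1, which entered no comparison of genotypes, carried the exocrine signal above every adjacent array of settled genotype. All 9 exocrine genes were higher there than in each of the 4 assigned adjacent arrays. Their mean excess over the genes' own medians was 3.02 log2, against 0.991 in the highest of those arrays, floxed adjacent array 2. Of the 30 other acinar genes, 22 were likewise above all 4, against 19.7% of all 19938 genes. The 9 genes were chosen with this array's values known. The array is KO by title and flox/flox by genotype characteristic, so this signal is assigned to no genotype.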

How the results depend on the processing

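Each of 156 alternative values of the 9 genes' mean excess per array moved by less than the pooled spread between arrays of a group (SD 1.46 log2). That spread was taken from the same 9 genes and includes the arrays that carry the signal. It is larger than the whole mean excess of floxed adjacent array 2 (0.99), so staying within it is no evidence of stability. The alternative values ran from 2.65 to 3.48 in floxed tumor array 3 and 2.40 to 3.29 in conflict array 1. In KO tumor array 2 they ran from 1.23 to 1.97 and in floxed adjacent array 2 from 0.43 to 1.35. Counts of called genes depended on the setting. KO against floxed tumor epithelium called 215 genes, and this became 61 with trend and robust options, 132 with the conflict arrays read by characteristic, 0 read by title, 8 with only the arrays compared, 13 with quantile normalization again, 782 with the replicate block, 98 without the dimmest 30% of genes (which kept 9 of 9 exocrine and 24 of 30 other acinar genes), 3866 without weak-signal arrays, and 10 (without KO tumor array 1 or 2) to 5793 (without floxed tumor array 3) with 1 array left out. The adjacent comparison called 1209 genes, and this became 48 by characteristic, 1 by title, 3435 with only the arrays compared (1 of the 9, Cela3b, among them), 128 with quantile normalization, 2450 with the replicate block, 460 without the dimmest genes, and 1 (without KO adjacent array 2) to 427 (without floxed adjacent array 1) with 1 array left out. A group left with 1 array was assumed to vary like the others. Without floxed tumor array 3, the floxed tumor arrays left were both weak-signal arrays. The adjacent comparison could not be fitted without weak-signal arrays, since no floxed adjacent array was left. The 9 genes' mean difference in tumor epithelium, -0.41, ran from -1.12 to 0.80 with 1 array left out (positive without floxed tumor array 3) and was -2.84 without weak-signal arrays, when 7 of 9 passed against the 1 floxed array for whose high values they were chosen. In adjacent epithelium, -0.63, it ran from -1.30 to 0.0531 (without floxed adjacent array 2) and was 0.51 with the conflict arrays by title. Tumor minus adjacent, 0.04, was -0.0324 with quantile normalization and ran from -0.48 to 0.54 with 1 array left out. Of the 15 most similar genes, 2 stayed with Spearman's correlation, 9 without weak-signal arrays and 11 to 15 with 1 array left out. Pair correlations without floxed tumor array 3 and conflict array 1 (median 0.657) and without weak-signal arrays were chosen after seeing the data. The causes of these moves were not tested, except that fewer arrays or genes entered some fits. Signal over background was not used here, and low log2 values do not show absence.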
